A study of Mus musculus with 6 samples.

Results

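The 9 genes Itga3, Itga6, Itgb1, Itgb4, Lama3, Lama5, Lamb3, Col17a1 and Dst encode integrins, laminin chains and hemidesmosome components that attach epithelial cells to the basement membrane. They were chosen by name, and all 9 were found among the 11417 genes of the deposited expression table. The table gives RPKM, reads per kilobase of gene length per 1000000 reads, for poly(A) RNA of 3 mouse mammary cell lines with 2 libraries each. BC44 cells were grown in RPMI1640 with 10% serum and 5 µg/ml insulin, HC11 cells in the same medium with 10 ng/ml EGF added, whereas C57MG cells received DMEM GlutaMAX, 10% serum and insulin at 10 µg/ml. All were untreated established lines on plastic, labelled mammary epithelial and harvested 2 days after plating, with no basement membrane extract named in the labels. Line and medium cannot be told apart. The labels do not say whether the paired libraries came from separate cultures, so p-values measure the spread between these libraries, which may be technical.

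Epithelial cells hold on to the basement membrane mainly through laminin. A laminin is a trimer of an α, a β and a γ chain: Lama3 and Lamb3 encode the α and β chains of laminin-332, and Lama5 encodes the α chain of the laminin-511 type. Integrins are αβ pairs, in which α3 (Itga3) joins β1 (Itgb1), and α6 (Itga6) joins either β1 or β4 (Itgb4). The α6β4 pair, together with the transmembrane collagen XVII (Col17a1) and the cytoplasmic linkers dystonin (Dst, the gene of BPAG1) and plectin (Plec), builds the hemidesmosome, which ties laminin-332 outside the cell to keratin filaments inside it. In the mammary gland these structures are known from the basal, myoepithelial layer, which lies on the basement membrane. Integrins with β1 act instead through talin, kindlin and other linkers to actin.

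The C57MG libraries had little RNA of most markers that define the labelled epithelial cell type. Of 13 epithelial markers 12 were listed, and their summed level was 65.5 and 137.5 RPKM in the C57MG libraries against 2290 to 5106 RPKM in BC44 and HC11. Krt5 and Krt14 made up most of the sum in every library. Krt14 was still at 118.0 RPKM in C57MG replicate 1 and 64.8 RPKM in replicate 2. In C57MG replicate 2 the defining markers Epcam and Cdh1 were listed at 0, along with Cldn3, Cldn4, Esrp1, Esrp2 and Ovol1. Krt18 and Cldn3 were at 0 in both BC44 libraries and in C57MG replicate 1 as well. Krt8 was under 1 RPKM in BC44 (0.038 and 0.064) and in C57MG (0.307 and 0.503). It passed the filter on low values through HC11 alone (144.4 and 148.0 RPKM), so the difference between BC44 and C57MG is not read as a result. The 13 mesenchymal markers summed to 7478 and 7685 RPKM in C57MG and to 267.6 to 435.8 RPKM in the other libraries. S100a4 and Vim had the largest means in C57MG, 3739 and 2495 RPKM. By limma 12 of the 13 were higher in C57MG than in BC44 and than in HC11, where 34.1% and 33.2% of all genes were. Snai2 went the other way, at 32.1 and 42.9 RPKM in BC44, 10.8 and 10.0 in HC11, with 7.85 and 6.58 in C57MG. It was higher in BC44 and in HC11 by limma (adjusted p 7.32e-06 and 0.0215). Of the endothelial and leukocyte markers, 2 of 6 and 2 of 7 were listed, with sums of 0.252 to 2.38 RPKM and 1.52 to 21.9 RPKM, the latter highest in C57MG through Lyz2. Estimated depth was 14250000 to 18550000 reads per library.

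Promoter windows of 4 members are shown because these members had 3 different expression patterns. Each window runs from 250 bases before to 50 after a RefSeq start (GRCm38.p6), 5′ to 3′ on the gene's strand, with CpG dinucleotides in capitals. Col17a1 (chr19:47691993-47692292, minus strand) and Lamb3 (chr1:193301744-193302043, plus strand, the first of 2 windows) were low in C57MG, Itgb1 (chr8:128685404-128685703, plus strand) was high in every line, and Dst (chr1:34160010-34160309, plus strand, the second of 2 windows) was highest in BC44.
Col17a1: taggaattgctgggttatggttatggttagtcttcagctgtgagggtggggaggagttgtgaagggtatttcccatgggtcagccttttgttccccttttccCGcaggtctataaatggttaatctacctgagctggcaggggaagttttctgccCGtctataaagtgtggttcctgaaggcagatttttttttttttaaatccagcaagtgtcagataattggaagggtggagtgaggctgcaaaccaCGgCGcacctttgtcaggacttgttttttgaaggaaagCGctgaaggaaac
Lamb3: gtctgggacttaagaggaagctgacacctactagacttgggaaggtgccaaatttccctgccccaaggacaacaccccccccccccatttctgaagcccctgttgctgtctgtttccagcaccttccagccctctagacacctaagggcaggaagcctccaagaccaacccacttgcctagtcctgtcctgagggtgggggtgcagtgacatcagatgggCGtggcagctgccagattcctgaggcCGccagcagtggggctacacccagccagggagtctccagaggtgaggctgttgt
Itgb1: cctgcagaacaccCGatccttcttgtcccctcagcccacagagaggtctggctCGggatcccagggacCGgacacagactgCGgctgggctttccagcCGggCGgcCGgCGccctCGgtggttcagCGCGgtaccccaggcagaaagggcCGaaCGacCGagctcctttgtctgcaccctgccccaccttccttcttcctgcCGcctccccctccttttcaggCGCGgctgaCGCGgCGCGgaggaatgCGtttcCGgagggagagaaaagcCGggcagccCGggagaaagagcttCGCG
Dst: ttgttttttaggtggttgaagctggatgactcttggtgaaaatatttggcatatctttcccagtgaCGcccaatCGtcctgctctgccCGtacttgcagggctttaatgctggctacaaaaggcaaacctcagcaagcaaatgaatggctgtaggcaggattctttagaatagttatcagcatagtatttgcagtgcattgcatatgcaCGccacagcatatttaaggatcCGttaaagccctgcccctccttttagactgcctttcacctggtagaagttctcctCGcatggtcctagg

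The windows of the members differed in CpG number and in GC content, which ran from 46.0% in the second Dst window to 72.7% in Lama5 against a median of 52.7% over all windows. Col17a1 held 5 CpG and the Lamb3 windows 2 and 5, against a median of 7 (quartiles 3 and 20) over all 32851 windows of that length in the table. Itgb1 held 27, Lama5 24, and Itga3 24 and 5 in its 2 windows. Dst held 31 at its first window and 6 at the second one shown above. Windows of 6 of the 9 genes were used, 9 in all, and the 2 of Lamb3 share bases. A motif of the GRHL factors named in the series title, searched as AACNGGTT on both strands, had no match in any of the 9 windows, and 2.09% of all windows held it. The E2-box CACCTG, searched on both strands, was present in 5 of the 9 windows, namely 1 each of Itga3 and Lama5, the second of Lamb3 and both of Dst, and in 20.2% of all windows. A match or its lack describes these letters only.

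**Figure D1:**
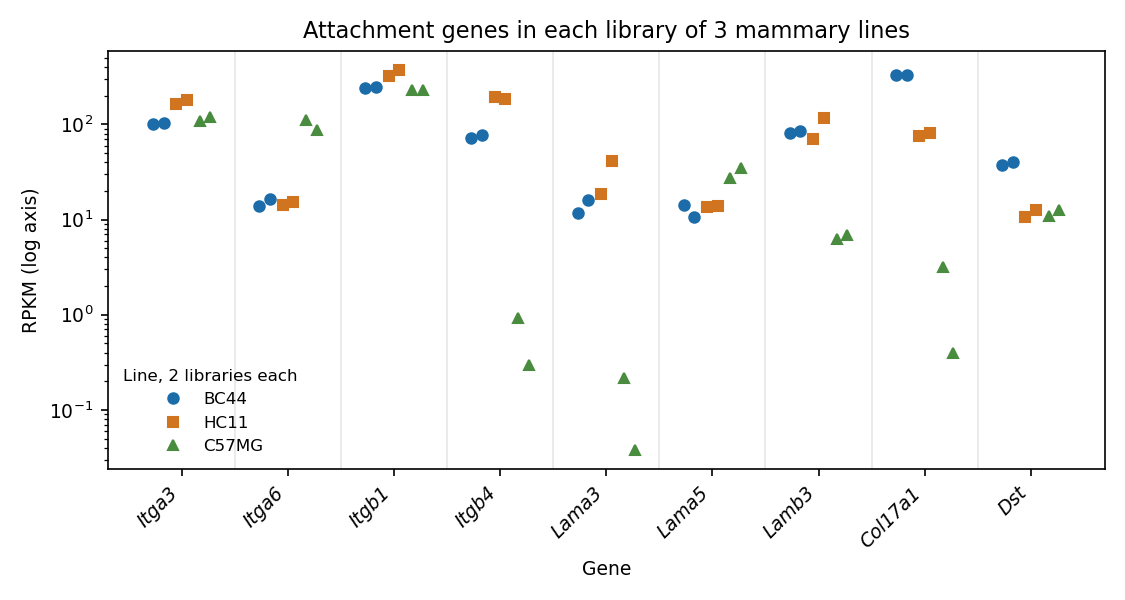
RPKM of the 9 attachment genes in each library, on a log axis, with 2 points per line. The C57MG points of Itgb4, Lama3, Lamb3 and Col17a1 lie below those of both other lines, whereas the C57MG points of Itga6 and Lama5 lie above them.

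Itgb4, Col17a1, Lama3 and Lamb3 were higher in BC44 and HC11 than in C57MG, while the α6 chain was highest in C57MG. Between BC44 and C57MG, 5 of 9 members were higher in BC44 and 2 in C57MG by limma (adjusted p under 0.05), where 71.7% of the 10759 tested genes passed, 37.5% higher in BC44 and 34.1% higher in C57MG. Between HC11 and C57MG, 6 were higher in HC11 and 2 in C57MG, against 70.5% of all genes (37.4% and 33.2%). Between BC44 and HC11, 2 were higher in BC44 and 4 in HC11, against 47.7% (24.7% and 23%). Since 47.7% to 71.7% of all genes passed in these contrasts, the number of members called is not read as a result about the members. All 9 passed the filter on low values. The libraries did not overlap for 9 members between BC44 and C57MG (87.9% of all genes), 8 between HC11 and C57MG (86.2%) and 6 between BC44 and HC11 (73%). The median absolute log2 fold change of the members was 2.63 for BC44 to C57MG, 2.65 for HC11 to C57MG and 0.75 for BC44 to HC11, beside 0.57, 0.53 and 0.29 over all genes tested. In bulk RNA, fewer cells of a type and less RNA per cell cannot be told apart.

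**Figure D2:**
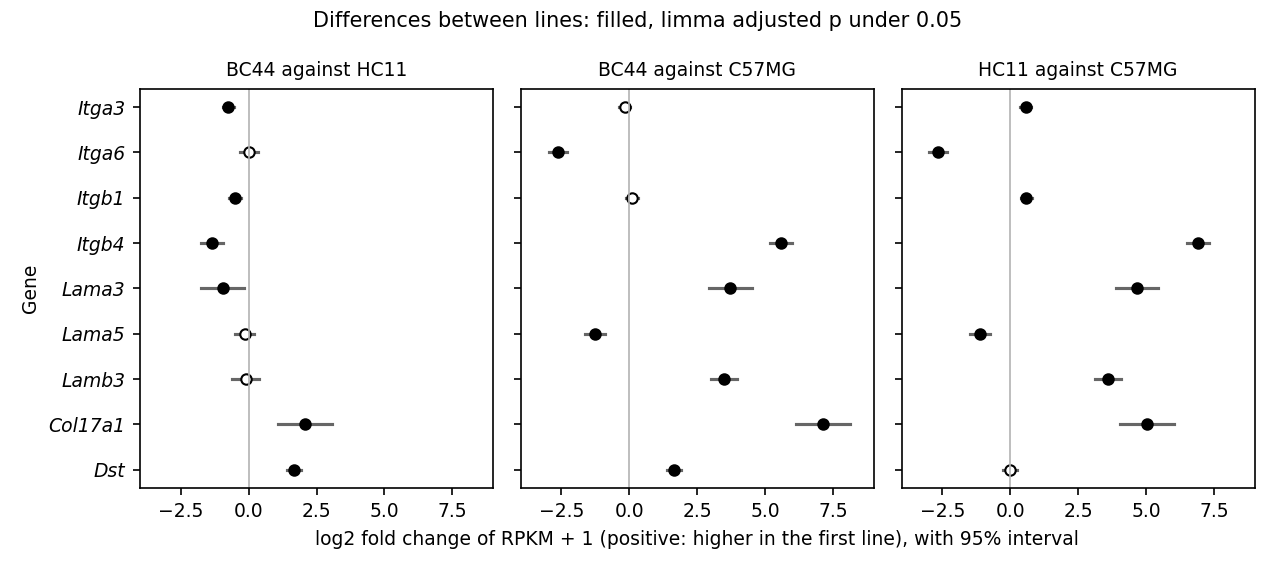
log2 fold change of RPKM + 1 for each member in the 3 contrasts, with its 95% interval from limma; filled points have an adjusted p under 0.05. Itgb4, Lama3, Lamb3 and Col17a1 lie between 3.48 and 7.11 in both contrasts with C57MG, and Itga6 and Lama5 lie below 0 there.

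Itgb4 encodes the β4 chain, whose long cytoplasmic tail binds plectin (ENSMUSG00000020758, chromosome 11, 115974709 to 116008412, GRCm38). Its level was 71.4 and 77.0 RPKM in BC44, 192.5 and 185.1 in HC11, with 0.931 and 0.296 in C57MG. The lines did not overlap, and the order was HC11, BC44, C57MG. HC11 was 2.55-fold above BC44 in mean RPKM (log2 fold change of BC44 against HC11 -1.34, SE 0.17, limma adjusted p 0.000624). Against C57MG the log2 fold change was 5.57 in BC44 and 6.91 in HC11 (SE 0.17 each, adjusted p 2.78e-07 and 1.90e-07). The C57MG libraries differed 3.15-fold from each other, so the ratio of the BC44 mean to C57MG was 79.7 with replicate 1 and 251 with replicate 2. An estimated 118 and 32 reads lay behind these C57MG values.

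Itga6, the α chain that can pair with β4, was highest in C57MG, where Itgb4 was lowest (ENSMUSG00000027111, chromosome 2, 71745616 to 71858416). It lay at 13.8 and 16.5 RPKM in BC44, 14.3 and 15.5 in HC11, with 112.6 and 86.8 in C57MG. C57MG was above every other library, and BC44 and HC11 overlapped. The mean in C57MG was 6.59-fold that of BC44 and 6.68-fold that of HC11 (log2 fold changes of BC44 and HC11 against C57MG -2.63 and -2.65, SE 0.14, limma adjusted p 2.26e-06 and 2.58e-06). Between BC44 and HC11 the difference was 0.01 on the log2 scale, with a 95% interval of -0.31 to 0.34 and an adjusted p of 0.941. RPKM is a value per length, so both chains were set side by side within a library. The gene lengths used for it are not given, so ratios between genes, here and below, are approximate. Itgb4 was 5.19 and 4.67 times Itga6 in BC44 and 13.4 and 12.0 times in HC11, whereas in C57MG Itga6 was 121 and 293 times Itgb4.

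**Figure D3:**
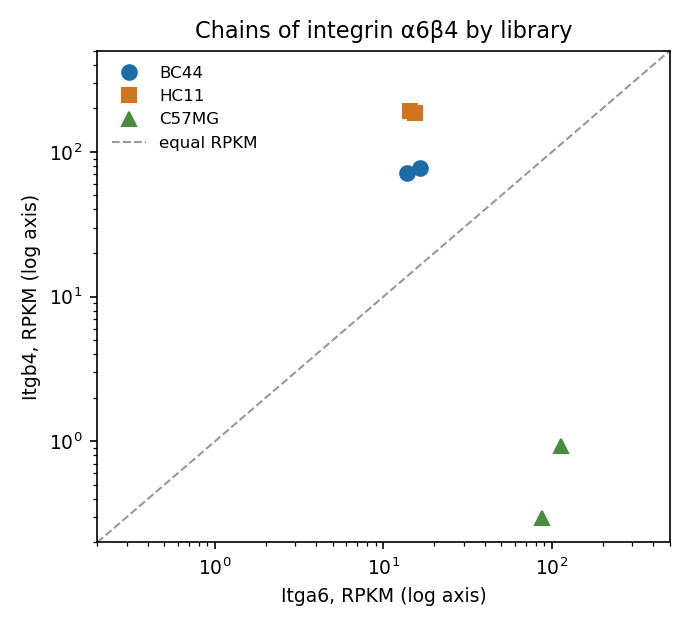
Itga6 against Itgb4 RPKM in the 6 libraries, both on log axes, with a dashed line where both are equal. BC44 and HC11 lie above the line, near 15 RPKM of Itga6, and C57MG lies far below it, at 86.8 and 112.6 RPKM of Itga6 and under 1 RPKM of Itgb4.

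Itgb1 and Itga3, the chains of the laminin receptor α3β1, were high in all 3 lines. Itgb1 (ENSMUSG00000025809, chromosome 8, 128685654 to 128733200) was at 239.5 and 249.4 RPKM in BC44, 321.8 and 375.1 in HC11, with 227.2 and 231.2 in C57MG, and it ranked between 112 and 184 of 11417 genes in every library. Itga3 (ENSMUSG00000001507, chromosome 11, 95044474 to 95076801) was at 100.4 and 102.3 RPKM in BC44, 162.4 and 179.6 in HC11, with 108.4 and 119.9 in C57MG. HC11 was highest for both genes, with no overlap. Its mean was 1.43-fold that of BC44 and 1.52-fold that of C57MG for Itgb1, and 1.69-fold and 1.498-fold for Itga3. All 4 differences passed in limma, with adjusted p-values of 0.00300 and 0.000648 for Itgb1 and 0.000362 and 0.000579 for Itga3. The difference between BC44 and C57MG did not pass for either gene, although the libraries did not overlap: the log2 fold change was 0.09 for Itgb1 (95% interval -0.12 to 0.30, adjusted p 0.385) and -0.17 for Itga3 (-0.37 to 0.03, 0.113). Itga3 exceeded Itga6 by 7.30 and 6.20 times in BC44 and by 11.3 and 11.6 times in HC11. In C57MG the ratio of Itga3 to Itga6 was 0.963 and 1.38, so a different chain was the higher one in each library.

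Among the laminin chains, Lama3 and Lamb3 were low in C57MG and Lama5 was not. Lama3, the α chain of laminin-332 (ENSMUSG00000024421, chromosome 18, 12333819 to 12583013), was at 11.7 and 16.1 RPKM in BC44, 18.4 and 41.2 in HC11, with 0.214 and 0.038 in C57MG. Both HC11 libraries were above both BC44 libraries, but they lay 2.23-fold apart, a gap on the log2 scale that only 0.586% of the tested genes equalled or exceeded between these libraries. BC44 and HC11 were above C57MG by 3.72 and 4.67 on the log2 scale (SE 0.33, limma adjusted p 3.49e-05 and 1.18e-05). In C57MG the estimated reads of Lama3 were 42 and 6. The difference between BC44 and HC11 (-0.95, SE 0.33, adjusted p 0.0486) lay at the threshold. It failed under 12 of 16 other settings, with adjusted p-values up to 0.245, among them the loss of any single library except HC11 replicate 1. Without HC11 replicate 2 it was -0.40 (adjusted p 0.190).

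Lamb3, the β chain of laminin-332 (ENSMUSG00000026639, chromosome 1, 193207699 to 193343878), was at 81.9 and 85.1 RPKM in BC44, 70.0 and 116.5 in HC11, with 6.30 and 6.85 in C57MG. BC44 fell between the HC11 libraries, and C57MG was below all others. The log2 fold change was 3.48 for BC44 and 3.59 for HC11 against C57MG (SE 0.20 each, limma adjusted p 3.89e-06 and 3.78e-06), and -0.11 for BC44 against HC11 (95% interval -0.59 to 0.37, adjusted p 0.684). That last comparison turned on 1 library: it was -0.48 and passed without HC11 replicate 1 (adjusted p 0.0101), and 0.25 without HC11 replicate 2 (0.0788). Lamb3, like Lama3, was higher in HC11 replicate 2 than in replicate 1, by 1.66-fold beside 2.23-fold. Per length, Lamb3 was above Lama3 in every library, by 5.27 to 6.99 times in BC44 and 2.83 to 3.8 times in HC11. In C57MG Lamb3 was 29.4 and 180 times Lama3.

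Lama5, the α chain found in most epithelial and endothelial basement membranes (ENSMUSG00000015647, chromosome 2, 180176373 to 180225859), was at 14.2 and 10.7 RPKM in BC44, 13.6 and 14.0 in HC11, with 27.5 and 34.9 in C57MG. C57MG was highest without overlap, and the BC44 libraries lay on both sides of the HC11 libraries. The mean in C57MG was 2.51-fold that of BC44 and 2.26-fold that of HC11 (log2 fold changes -1.26 and -1.11, SE 0.16 each, limma adjusted p 0.000199 and 0.000432). BC44 against HC11 gave -0.15 (95% interval -0.51 to 0.21, adjusted p 0.469). Lama3 and Lama5 were of similar level in BC44, with ratios of Lama3 to Lama5 of 0.824 and 1.51, and Lama3 was the higher one in HC11, with ratios of 1.36 and 2.94, whereas in C57MG Lama5 was 128 and 919 times Lama3.

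Col17a1, the transmembrane collagen of the hemidesmosome (ENSMUSG00000025064, chromosome 19, 47646344 to 47692094), was the member with the largest difference between BC44 and C57MG. Its level was 330.1 and 334.4 RPKM in BC44, 74.8 and 81.6 in HC11, with 3.19 and 0.394 in C57MG. The lines did not overlap, and the order was BC44, HC11, C57MG, so HC11 stood above BC44 for Itgb4 and below it for Col17a1. The ratio of Col17a1 to Itgb4 was 4.63 and 4.34 in BC44 and 0.389 and 0.441 in HC11. BC44 exceeded HC11 4.25-fold in mean RPKM (log2 fold change 2.07, SE 0.42, limma adjusted p 0.00569), a call that was lost with a pseudocount of 0.1 (2.09, adjusted p 0.0618). Against C57MG the log2 fold change was 7.11 in BC44 and 5.03 in HC11 (SE 0.42 each, adjusted p 4.05e-06 and 2.89e-05). C57MG replicate 1 was 8.09 times replicate 2. The BC44 mean was 104 times the first and 843 times the second.

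Dst, the cytoplasmic linker (ENSMUSG00000026131, chromosome 1, 33908225 to 34308661), was highest in BC44. It was at 37.5 and 40.5 RPKM in BC44, 10.7 and 12.6 in HC11, with 11.02 and 12.5 in C57MG. HC11 and C57MG overlapped, and BC44 lay above both. BC44 exceeded HC11 3.35-fold and C57MG 3.32-fold in mean RPKM (log2 fold changes 1.67 and 1.65, SE 0.11 each, limma adjusted p 2.62e-05 and 7.37e-06), whereas HC11 against C57MG gave -0.01 (95% interval -0.27 to 0.25, adjusted p 0.922). Dst is known to make epithelial, neuronal and muscle isoforms from different starts, and its 2 promoter windows belong to different starts. The table gives 1 value per gene, so the isoforms could not be told apart.

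The low levels of 3 members differed between the C57MG libraries in the same direction as 8 epithelial markers. Of the 12 listed epithelial markers, 8 had a mean of at least 5 RPKM in both BC44 and HC11. Krt8 and Krt18, which did not, were higher in C57MG replicate 2 (0.503 and 0.046 RPKM) than in replicate 1 (0.307 and 0 RPKM). In C57MG replicate 1 the 8 markers stood at 0.764% to 4.33% of their BC44 mean, with a median of 0.862%, and in replicate 2 at 0 to 2.38%, with 5 of 8 listed at 0. Col17a1, Itgb4 and Lama3 reached 0.959%, 1.26% and 1.54% of the BC44 mean in replicate 1, and 0.119%, 0.399% and 0.273% in replicate 2. Lamb3 was at 7.55% and 8.20%, above all 8 markers in both libraries. Without C57MG replicate 1 the log2 fold changes of BC44 against C57MG were 7.90 for Col17a1, 5.86 for Itgb4, 3.83 for Lama3 and 3.43 for Lamb3, and all 4 still passed in limma (largest adjusted p 0.000394). The part of these markers' source in the replicate 1 values was not tested.

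**Figure D4:**
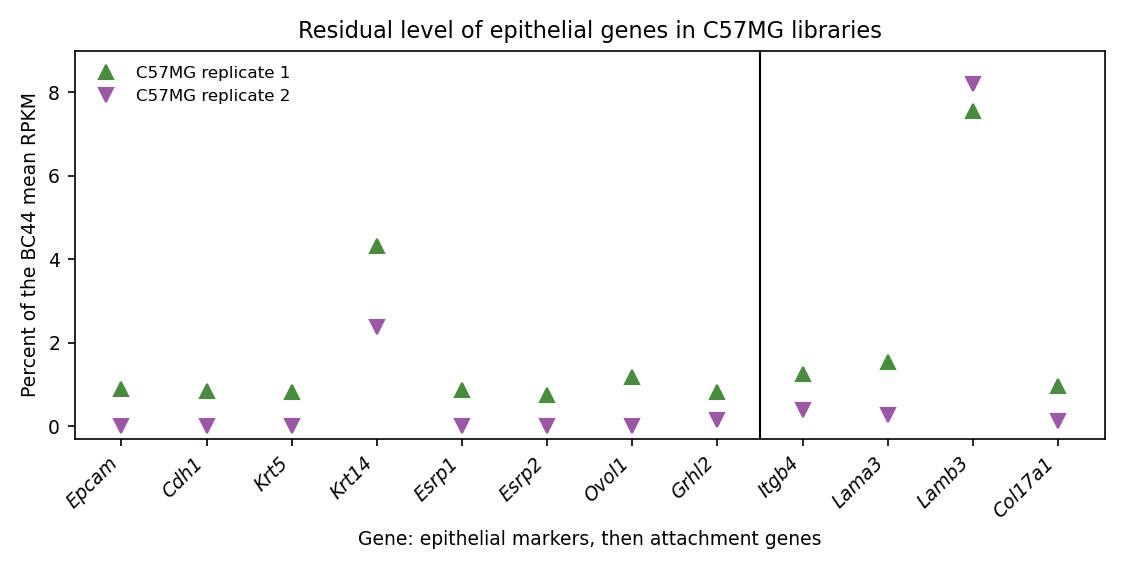
Level of 8 epithelial markers and 4 attachment genes in each C57MG library as a percentage of the BC44 mean RPKM. Replicate 1 is above replicate 2 for every gene shown but Lamb3, which lies near 8% in both libraries, while Krt14 lies at 4.33% and 2.38%.

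The other hemidesmosome and laminin receptor genes included some higher and some lower in C57MG. Of 7 listed for this purpose 6 were tested, and Bcam was not analysed here. Between BC44 and C57MG, 3 were higher in BC44, 2 in C57MG and 1 did not pass, with a median log2 fold change of 2.03 against 0.04 over all genes. That 5 of 6 passed is near the 71.7% over all genes. The largest differences were in Krt5 (8.76, SE 1.05), Krt14 (4.95, SE 0.26) and Fermt1 (4.21, SE 0.13, described with the linkers), where Krt5 and Krt14 encode the keratins that hemidesmosomes anchor. For Krt5 the C57MG libraries lay 108-fold apart, at 16.0 and 0.148 RPKM. Plectin, the linker that binds β4, was highest in C57MG, at 72.5 and 75.2 RPKM against 19.4 and 17.7 in BC44 and 25.4 and 34.8 in HC11. Cd151, a tetraspanin partner of α3β1 and α6 integrins, was also highest in C57MG, at 166.6 and 163.1 RPKM, against 73.6 to 95.9 RPKM in the other libraries. Both passed against BC44 and against HC11, with limma adjusted p-values of at most 0.000282. Between HC11 and C57MG 4 of the 6 were higher in HC11 and 2 in C57MG, where 37.4% and 33.2% of all genes were. In BC44 against HC11, 1 was higher in BC44, 3 were higher in HC11 and 2 did not pass. Over all genes 24.7% were higher in BC44 and 23% in HC11 there.

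The remaining laminin chains separated the lines further. Of 7 other chains 5 were tested, and Lama1 and Lamc3 were not analysed here. Lamb2 and Lamc1, the β2 and γ1 chains, were highest in C57MG, with means of 50.5 ± 1.58 and 53.6 ± 0.227 RPKM (SD, n = 2), against 6.92 ± 1.08 and 13.0 ± 0.599 in BC44 and 6.77 ± 1.31 and 21.2 ± 0.349 in HC11. Against C57MG the log2 fold change of BC44 was -2.71 for Lamb2 and -1.97 for Lamc1. Lama4 reached 1 RPKM in HC11 alone, at 8.80 and 9.49 RPKM, with 0 and 0.014 RPKM in BC44 and 0 in both C57MG libraries. Lamb1 was highest in HC11, at 20.1 and 26.4 RPKM, against 8.79 to 10.7 RPKM in the other libraries. Of the 5 chains, BC44 had none higher and 3 lower than C57MG, HC11 had 2 higher and 3 lower than C57MG, and BC44 had none higher and 3 lower than HC11. Over all genes, 71.7%, 70.5% and 47.7% passed in these contrasts.

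Of 10 remaining integrin α chains 5 were tested. Against BC44, 4 were higher in C57MG and none lower, and against HC11, 4 were higher in C57MG and 1 lower, where 34.1% and 33.2% of all genes were higher in C57MG. Itga5, the fibronectin receptor chain, was at 57.2 and 48.7 RPKM in C57MG against 16.4 and 11.7 in BC44 and 10.29 and 11.5 in HC11. Itga11, a collagen receptor chain, was at 61.0 and 52.6 RPKM in C57MG and at most 1.17 RPKM elsewhere, and Itgav was at 42.0 and 37.7 RPKM against 16.7 to 20.7. Of 6 β chains 5 were tested: Itgb3, Itgb5 and Itgb7 were higher in C57MG than in BC44, and Itgb6 and Itgb8 higher in BC44. Even in BC44 Itgb6 and Itgb8 were low, at 0.914 and 1.25 RPKM and at 2.84 and 2.52 RPKM. Against HC11, 3 of the 5 tested β chains were higher in C57MG, 1 was lower and 1 did not pass. Itgb5 was at 153.6 and 136.8 RPKM in C57MG, 58.4 and 50.6 in BC44 and 39.9 and 31.9 in HC11. Itgb7 was at 35.1 and 33.6 RPKM in C57MG and at most 2.80 RPKM elsewhere.

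**Figure D5:**
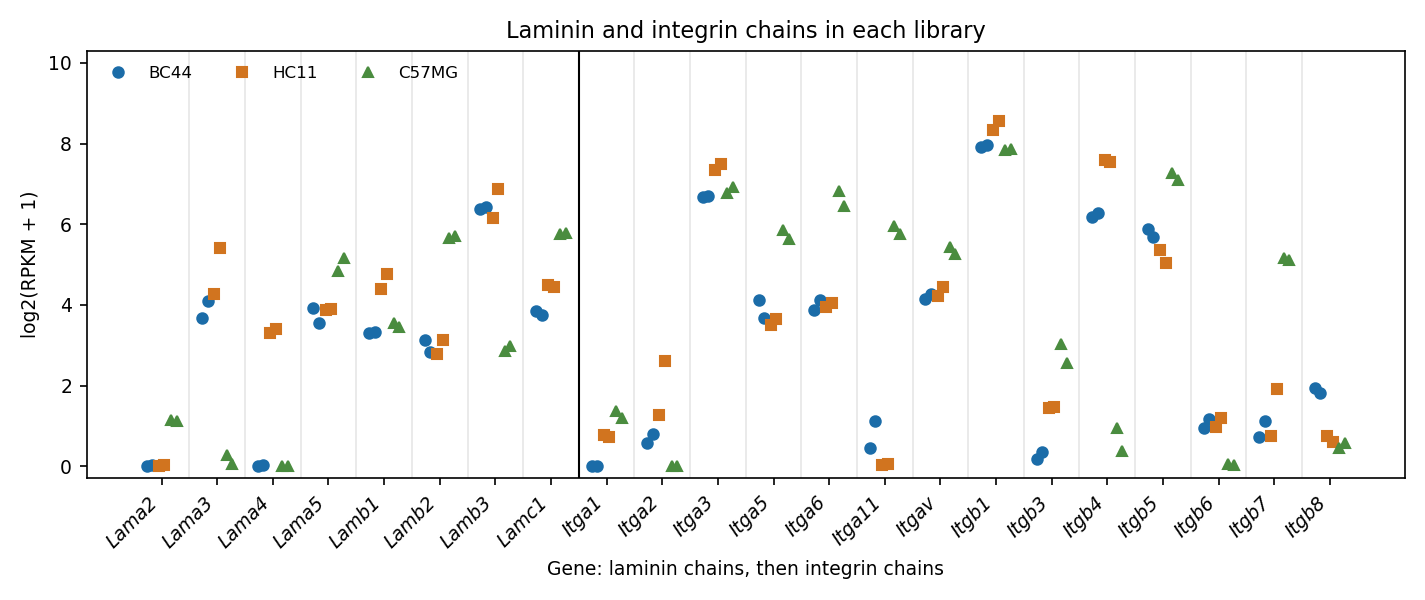
log2(RPKM + 1) of 8 laminin chains (left of the vertical line) and 14 integrin chains (right) in each library, with 2 points per line. The chains highest in C57MG include Lamb2, Lamc1, Lama5, Itga5, Itga6, Itga11, Itgav, Itgb5 and Itgb7, and those lowest there include Lama3, Lamb3 and Itgb4.

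Of 15 basement membrane components other than laminins 7 were tested. Against C57MG, 4 were higher and 2 lower in BC44, where 37.5% and 34.1% of all genes were. Col7a1, the anchoring fibril collagen beneath hemidesmosomes, was at 45.6 and 31.5 RPKM in BC44, 8.55 and 8.68 in HC11, with 1.61 and 1.38 in C57MG (log2 fold change of BC44 against C57MG 3.97, SE 0.17). This was the order seen for Col17a1. Agrn, the proteoglycan agrin, had the same order, at 72.9 and 64.4 RPKM, 30.3 and 25.04, and 8.68 and 8.89. Col4a1, a chain of the main type IV collagen network, ran the other way, with 7.92 and 8.74 RPKM in BC44, 32.6 and 27.0 in HC11, with 88.3 and 83.6 in C57MG (-3.22, SE 0.11). The adjusted p-values of these 3 genes in BC44 against C57MG were at most 6.77e-07 in limma.

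Linkers that couple β1 integrins to actin were represented by 11 genes, all tested. Of these, 8 were higher in C57MG than in BC44, 2 were higher in BC44 and 1 did not pass, where 34.1% and 37.5% of all genes were higher in C57MG and in BC44, with a median log2 fold change of -0.74. The kindlins changed places: Fermt1, the epithelial kindlin, was at 17.9 and 20.3 RPKM in BC44, 23.7 and 27.4 in HC11, with 0.184 and 0 in C57MG, and Fermt2 was at 2.28 and 2.08, 10.7 and 12.1, and 44.9 and 43.0 RPKM. The log2 fold change of BC44 against C57MG was 4.21 for Fermt1 (SE 0.13) and -3.82 for Fermt2 (SE 0.10). Vcl, the gene of vinculin, was higher in C57MG by 1.79 on that scale, at 89.7 and 105.1 RPKM against 26.2 and 28.4 in BC44.

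The genes closest in profile to each member were ranked by the root mean square difference of log2(RPKM + 1) over the 6 libraries after centring each gene. For Itgb4 they were Lypd3 (0.26), Fgfbp1 (0.29) and Urah (0.36). Nearest to Col17a1 were Gpx2 (0.30) and the desmosome genes Dsg3 (0.34) and Dsp (0.39), which join epithelial cells to each other. Lama3 was closest to Cxcl16 (0.19), Tnc (0.22) and Sbsn (0.26), and Lamb3 to Casc4 (0.18), Tbc1d9 (0.19) and Nipal4 (0.20). Itga6 was closest to Nptxr (0.08), Rgs17 (0.09) and Pcolce2 (0.10), Lama5 to Lpp (0.06), Ube2t (0.09) and Isoc2a (0.10), and Dst to Zfp518a (0.07) and Plxdc2 (0.09). Itgb1 was closest to Atpaf2 (0.03), Sdc1 (0.05) and Tyms (0.05), and Itga3 to Pld2 (0.06), Wrap53 (0.06) and Meis1 (0.07). The members did not appear among each other's 3 closest genes. Adding 1 before the log shrinks the changes of low genes, so a near gene can differ from the member in its ratios. Nptxr was at 0.028 to 0.148 RPKM in BC44 and HC11 and at 6.39 and 5.63 in C57MG. Plxdc2 was at 0 to 0.01 RPKM in HC11 and C57MG. With 3 lines there are few distinct profiles, and these distances describe likeness only.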

How the data were processed

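Poly(A) RNA of 6 libraries was measured, and the authors deposited 1 table of RPKM values per gene and library. STAR and the mouse build mm9 are named in the submitters' processing notes; the read counter, annotation, gene lengths and filters are not given in the sources used here, nor is whether counting used the strand of the directional libraries. Gene identifiers (11417 of 11417) and loci were taken from GENCODE M21 (GRCm38), and promoter windows from RefSeq (GRCm38.p6), not from mm9. Sequence of Lama3 is not shown, and some results are not reported here.

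After adding 1, RPKM was log2-transformed. The package limma (version 3.58.1, R version 4.3.3, eBayes with trend) was fitted to the 10759 genes with at least 1 RPKM in at least 2 libraries (658 were left out), all 6 libraries in 1 model, two-sided, Benjamini-Hochberg adjusted within each contrast, threshold 0.05. This scale understates changes of low genes, and the ratios given are of mean RPKM. An exact permutation test of 2 against 2 cannot go below 0.333 and was not used. Scripts were tested on simulated data. Depth was estimated from the steps of low values times exonic length: 76.4% to 80.6% of 242 to 374 values per library lay within 0.15 of a whole read, against 30.0% by chance. The lengths are not the authors' own, so read numbers are estimates covering counting error only, and reads were not recovered. Python 3.11.15 with pandas 2.3.3 and matplotlib 3.10.9 was used otherwise.

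The members, lists and tests were chosen with earlier results of these data known. All members were named. All laminin chains, and integrin chains whose mean reached 5 RPKM in some line, could be named, and of other lists the 3 largest differences passing in BC44 against C57MG. Plec, Cd151, Itgb6, Itgb8, Lyz2, Snai2, S100a4 and Vim were chosen after their values were seen. Alternatives were a pseudocount of 0.1, no filter, a minimum mean of 5 RPKM, quantile normalization, scaling by median ratios, only the 4 libraries compared, no trend, robust variance, the replicate block and leaving out each library. Leaving out BC44 replicate 2 and C57MG replicate 1 together was added after seeing the data.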

Additional observations from a re-analysis of the deposited data

How the results depend on the processing

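Of the 27 member results (9 genes in 3 contrasts), 20 kept their direction and call under all 16 alternatives. The members past the threshold stayed at 7 for BC44 to C57MG and at 8 for HC11 to C57MG under each of them. In BC44 against HC11, where 6 passed, the number was 4 to 7. Lama3 there lost its call under 12 alternatives, Col17a1 with a pseudocount of 0.1, and Itgb1 without BC44 replicate 2 and C57MG replicate 1 together (-0.54, adjusted p 0.0943). The direction turned in 4 comparisons that had not passed. In BC44 against HC11, Itga6 was -0.11 without BC44 replicate 2, -0.036 without HC11 replicate 1 and -0.11 without BC44 replicate 2 and C57MG replicate 1, Lama5 was 0.043 without BC44 replicate 2 and 0.043 without both, and Lamb3 was 0.25 without HC11 replicate 2. Over all single libraries left out, these 3 ranged from -0.11 to 0.14 (Itga6), -0.34 to 0.043 (Lama5) and -0.48 to 0.25 (Lamb3). In HC11 against C57MG, Dst was 0.07 without C57MG replicate 2 and 0.10 without HC11 replicate 1, within a range of -0.13 to 0.10. The cause was not tested. Leaving out both libraries leaves 4 and lowered the genes past the threshold from 5129 to 2130 in BC44 against HC11 and from 7713 to 4892 in BC44 against C57MG; leaving out 1 library gave 3762 to 4776 and 6554 to 7944. A line left with 1 library is assumed to vary like the others. Scaling moved the median of all genes by under 0.1 on the log2 scale. With the replicate block, 6 members and 5350 genes passed for BC44 to HC11. For BC44 to C57MG these were 7 and 7875, and for HC11 to C57MG 8 and 7721. The numbers of members were the same as without it. Deviations of same-numbered libraries from their line mean correlated at 0.354 for BC44 and HC11, -0.039 for BC44 and C57MG, and 0.038 for HC11 and C57MG. The labels name no pairing, so the main model had no replicate block. Whether same-numbered libraries of BC44 and HC11 share more than a number was not tested. Of 480 list counts under alternatives, 447 stayed within 1.5 times. The precision of Lama3 in C57MG replicate 2 is limited by its estimated 6 reads.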
